A study of Mus musculus with 29 samples.

Results

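The genes described here are 41 interferon-stimulated genes, a fixed list of transcripts that cells make in response to interferons. They were taken as the rows carrying those gene symbols in a table of 22187 mouse gene IDs, and 41 of the 41 were found. The RNA came from tumour and non-tumour liver of C57BL/6 mice that had received diethylnitrosamine (DEN, a carcinogen that hepatocytes convert to a DNA-alkylating agent) at 25 mg/kg and 2 weeks of age, and were then fed for 18 weeks. Each of the 29 libraries belongs to 1 of 8 groups set by tissue, feeding and genotype. Among the non-tumour livers, 3 libraries were WT on HFD, 3 were IL17RA-/- on HFD, 5 were WT on HFD_alcohol and 5 were IL17RA-/- on HFD_alcohol. Among the tumours the same order gave 3, 3, 3 and 4 libraries. HFD_alcohol is called alcohol below. All groups, controls included, had DEN, so no liver without carcinogen is available as a reference. The series text describes liquid ethanol feeding against pair-feeding and the sample labels name HFD, so the diet names used here are those of the labels. The labels say neither which part of the receptor gene was removed nor in which cells, and they do not link libraries to animals. The p-values therefore measure the spread between libraries, which may in part be technical, and a tumour and a non-tumour library may come from the same mouse.

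Interferons are secreted proteins released when cells sense viral or misplaced nucleic acids, or, in the case of interferon gamma, when T and natural killer cells are activated. Type I and type III interferons act through receptors linked to the kinases JAK1 and TYK2. Their signal assembles the complex ISGF3, which holds STAT2 and IRF9 and binds the interferon-stimulated response element (ISRE), a repeat of the letters GAAA. Interferon gamma acts through JAK1 and JAK2 and reaches its target genes at the gamma-activated site (GAS), and many genes answer both routes. In liver, hepatocytes, Kupffer cells, endothelial cells and infiltrating immune cells can all make these transcripts. A bulk library cannot separate fewer cells of one type from less RNA per cell.

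Expression was read as CPM, the reads of a gene scaled to a common library total. Recovered library depth was 4653422 to 9660584 counts in non-tumour liver and 3213696 to 9169116 in tumours. At that depth 3 counts, the lowest number read as a level and a limit for counting error alone, correspond to 0.311 to 0.934 CPM, and 0 of the 1189 member values (41 genes in 29 libraries) lay below it. The lowest, Mx1 in alcohol IL17RA-/- non-tumour replicate 2, stood at that limit (0.418 CPM). The 10 most abundant genes held 14.6% to 19.6% of the CPM in non-tumour libraries and 16.6% to 32.2% in tumours. The targeted gene did not check the genotype labels, since it was in no comparison lower in IL17RA-/- beyond the spread. Il17ra was 25.2 to 27.3 CPM in HFD WT, 16.5 to 36.1 in HFD IL17RA-/-, 16.1 to 42.5 in alcohol WT and 15.9 to 37 in alcohol IL17RA-/- non-tumour livers. Its tumour ranges were 22.9 to 48.5, 54.4 to 62.9, 32.3 to 33.8 and 42.4 to 55.8 CPM in the same order. The non-tumour ranges overlap, whereas in tumours every library labelled IL17RA-/- lay above every WT library of its diet, the direction opposite to a loss of the transcript. That difference was 0.91 ± 0.22 on HFD (adjusted p = 0.0562, limma) and 0.58 ± 0.21 on alcohol (adjusted p = 1, limma), so neither passed. Which part of the gene was deleted is not given in the sources used here, and genotype below means the genotype as labelled. A summed level of 5 hepatocellular tumour markers (Afp, Gpc3, Igf2, Prom1 and Epcam) was 199 CPM in HFD WT tumour replicate 4 against 279 to 910 in the other tumours. The same sum was 431 in HFD IL17RA-/- replicate 3 and 181 in HFD WT replicate 1 among the non-tumour livers, against 4.6 to 64.7 in the others. These 3 libraries stand apart from their label, the tumour by the least. Many results that rest on them are given with and without them, but counts of groups that do not overlap only with them. Hepatocyte markers were abundant throughout, with a summed level of 83201 to 205437 CPM for 12 genes.

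Promoter sequence is shown first because many of these genes, though not all, share letters there. RefSeq promoter windows on GRCm38.p6, from 250 bases before to 50 bases after the annotated start, were found for 31 of the 41 genes. Both strands were searched for a repeat of the ISRE core, a pair of GAAA with any 2 bases between, and for the GAS letters TTCNNNGAA. The ISRE repeat was present in 17 of 31 genes (54.8%), against 3.44% of all 32851 promoter windows and 3.99% of the 27025 genes that have them. GAS letters were present in 8 of 31 (25.8%), against 8.3% of all windows and 9.55% of those genes. Both were found in 5 genes (Bst2, Gbp7, Igtp, Irgm2 and Oas1a). The windows of some genes overlap each other, as for Psmb9 and Tap1, which face away from a shared region, and the ISRE and GAS letters can overlap too, as they do in Bst2. The 6 stretches below stand for 5 of the groups of genes described later and are printed 5′ to 3′ on the strand of the gene. Capitals mark the ISRE repeat, which reads as TTTC runs where it lies on the opposite strand, and in Igtp also the GAS letters.
Isg15: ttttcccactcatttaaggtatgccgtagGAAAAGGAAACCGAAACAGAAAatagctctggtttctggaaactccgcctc
Ifit1: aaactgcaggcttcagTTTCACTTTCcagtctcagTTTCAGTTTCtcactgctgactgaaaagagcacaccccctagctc
Oas1a: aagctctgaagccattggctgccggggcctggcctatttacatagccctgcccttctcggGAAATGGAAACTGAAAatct
Bst2: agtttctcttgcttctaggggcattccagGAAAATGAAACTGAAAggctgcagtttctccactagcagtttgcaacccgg
Gbp2: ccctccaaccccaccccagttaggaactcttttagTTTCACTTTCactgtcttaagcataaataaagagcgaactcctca
Igtp: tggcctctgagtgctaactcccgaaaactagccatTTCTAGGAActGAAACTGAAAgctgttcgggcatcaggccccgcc

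These stretches lie at chr4:156200846-156200925 (minus strand), chr19:34640769-34640848 (plus), chr5:120907526-120907605 (minus), chr8:71537552-71537631 (minus), chr3:142620569-142620648 (plus) and chr11:58199476-58199555 (plus). Isg15 held overlapping copies of the repeat in 1 run, whereas Ifit1 held 2 separate copies. Overlapping copies counted separately, the members' windows held 26 ISRE repeats, of which 20 began within 150 bases before the start. All 6 matched guanylate-binding and immunity-related GTPase genes carried the repeat, as did 3 of 4 Ifit genes. None of the 3 antigen-processing genes did, nor any of the 4 matched genes of mixed function. With a looser spacing of 3 bases added to the count, 20 of 31 genes had a match, against 5.99% of all windows and 6.9% of all genes with a window. A match is a description of letters and not evidence of binding, and the absence of one says only that these letters are not in this window.

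**Figure D1:**
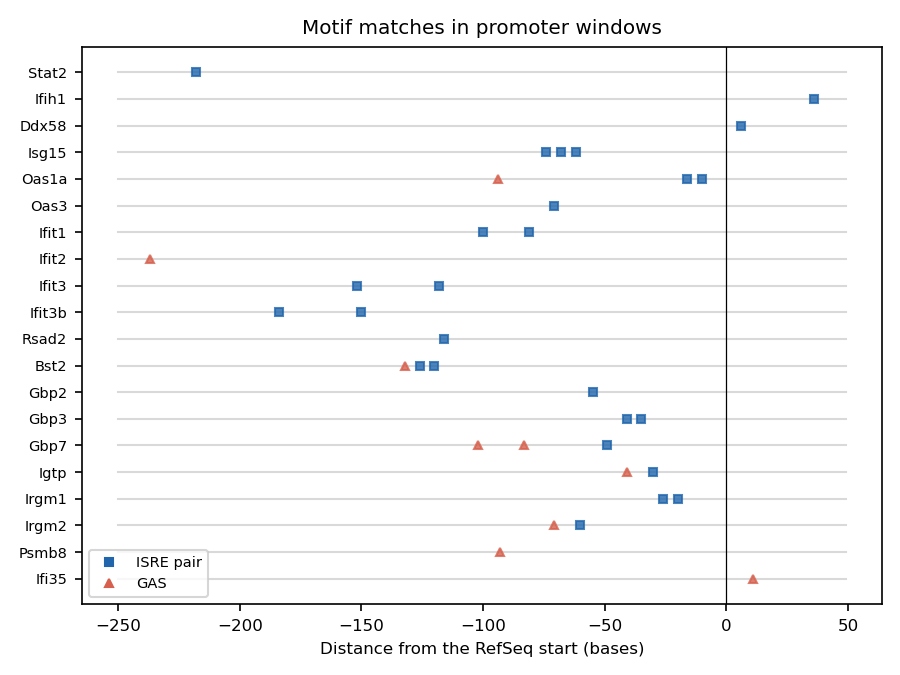
Positions of motif matches relative to the RefSeq start for the members with at least 1 match, in bases on the horizontal axis and 1 gene per row; squares mark the ISRE repeat (ISRE pair in the legend) and triangles the GAS letters. Most ISRE repeats sit within 150 bases before the start.

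Expression of the set varied more between libraries than between groups. The ratio of the highest to the lowest of the 29 libraries ran from 1.94 for Irf9 to 40.5 for Mx1 and Gbp2, with a median over the 41 genes of 7.09. The mean log2(CPM + 1) of the 41 genes was 5.36 ± 0.34 (SD, n = 3) in HFD WT, 4.64 ± 0.42 (n = 3) in HFD IL17RA-/-, 4.84 ± 0.40 (n = 5) in alcohol WT and 4.6 ± 0.79 (n = 5) in alcohol IL17RA-/- non-tumour liver. In tumours the same means were 5.43 ± 0.65 (n = 3), 4.96 ± 0.44 (n = 3), 4.88 ± 0.54 (n = 3) and 4.97 ± 0.24 (n = 4). The ranges of the groups overlapped, and single libraries ran from 3.64 in alcohol IL17RA-/- non-tumour replicate 2 to 5.99 in HFD WT tumour replicate 4. The plot of every gene by library shows most rows turning red or blue together within a library.

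**Figure D2:**
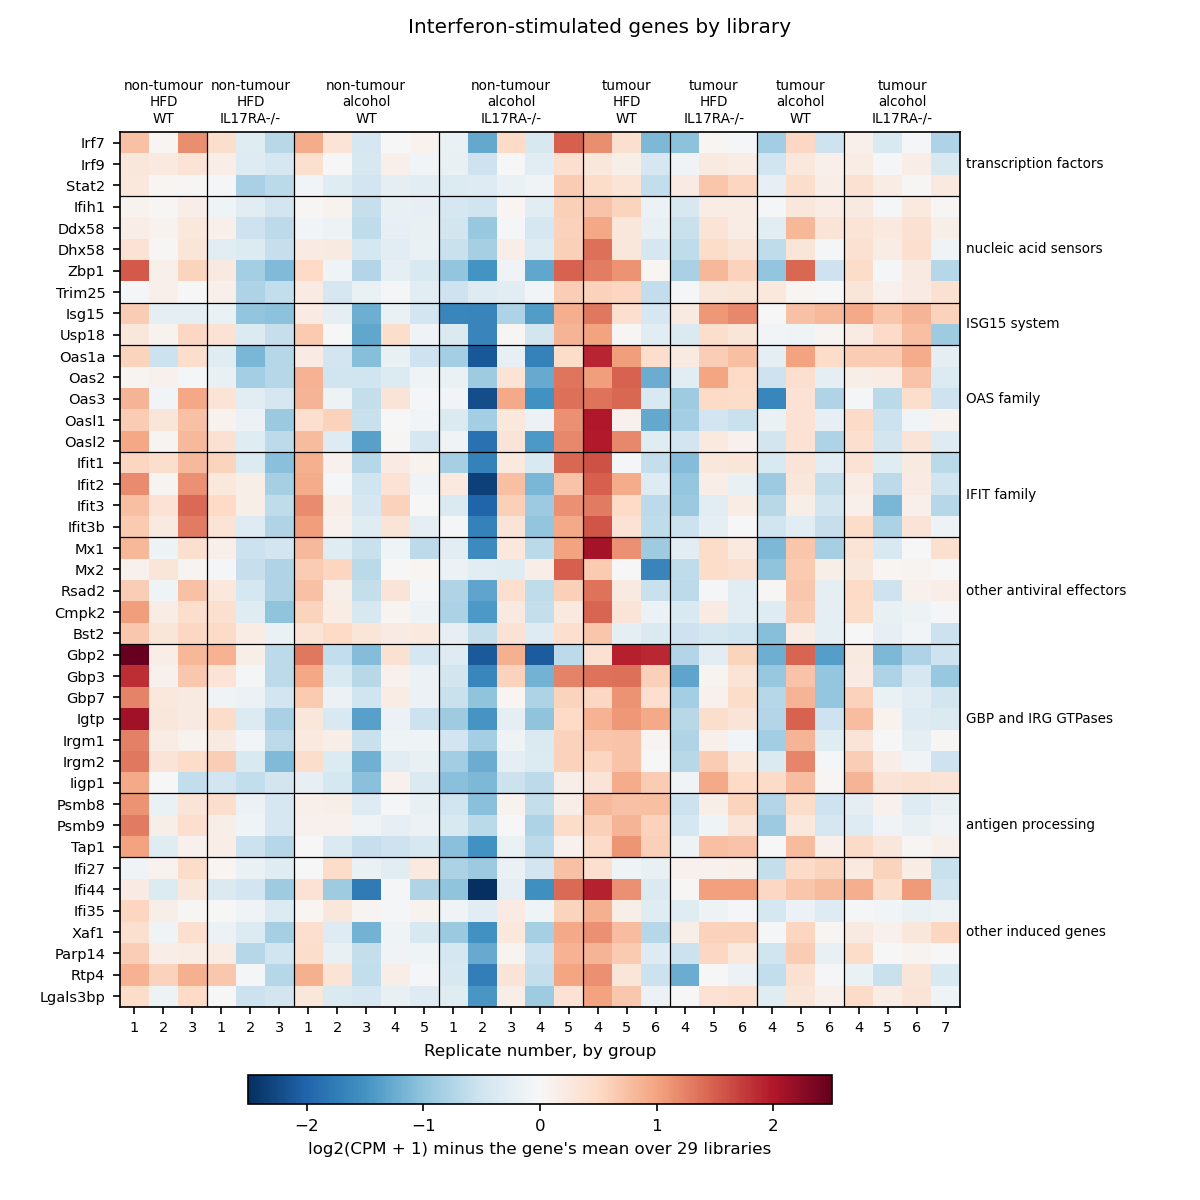
Level of each of the 41 genes (rows, by role) in each of the 29 libraries (columns, by group), as log2(CPM + 1) minus the mean of that gene over all libraries; the colour bar gives the scale. Columns such as alcohol IL17RA-/- non-tumour replicates 2 and 5 are low or high over nearly all rows.

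Tumours were compared with non-tumour liver in each of the 4 combinations of feeding and genotype and on their average. Differences are tumour minus non-tumour on the log2(CPM + 1) scale, with their standard error, from limma fitted to all 29 libraries. This scale understates the change of weakly expressed genes. On the average of the 4 combinations, 11 of the 41 genes rose and 1 fell at a Benjamini-Hochberg adjusted p under 0.05, by limma. Of the 13586 genes tested, 36.6% rose and 27.0% fell, so the share of these genes that moved lies below that of genes at large in both directions. The genes that rose were Iigp1, Isg15, Oas1a, Tap1, Ifi44, Stat2, Lgals3bp, Trim25, Ddx58, Xaf1 and Ifih1, and the gene that fell was Bst2. The median difference over the 41 genes was 0.17, against 0.09 over all genes, and 27 of 41 differences were positive, beside 56.8% of all genes. Leaving out 4 libraries (the 3 named above and alcohol IL17RA-/- tumour replicate 5, chosen on inspection by no set criterion after the data were seen) left 6 genes that rose and 2 that fell. The 6 were Iigp1, Isg15, Oas1a, Tap1, Ifi44 and Stat2, and the 2 were Bst2 and Ifi35. How many of all genes passed in that refit is not given here. The median over the 41 genes was then 0.12, and with single libraries left out it was lowest without HFD WT tumour replicate 4 (0.08), followed by alcohol WT tumour replicate 5 (0.09) and alcohol IL17RA-/- non-tumour replicate 2 (0.11). Without alcohol IL17RA-/- non-tumour replicates 2 and 4 it was 0.06, the same as over all genes (0.06).

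**Figure D3:**
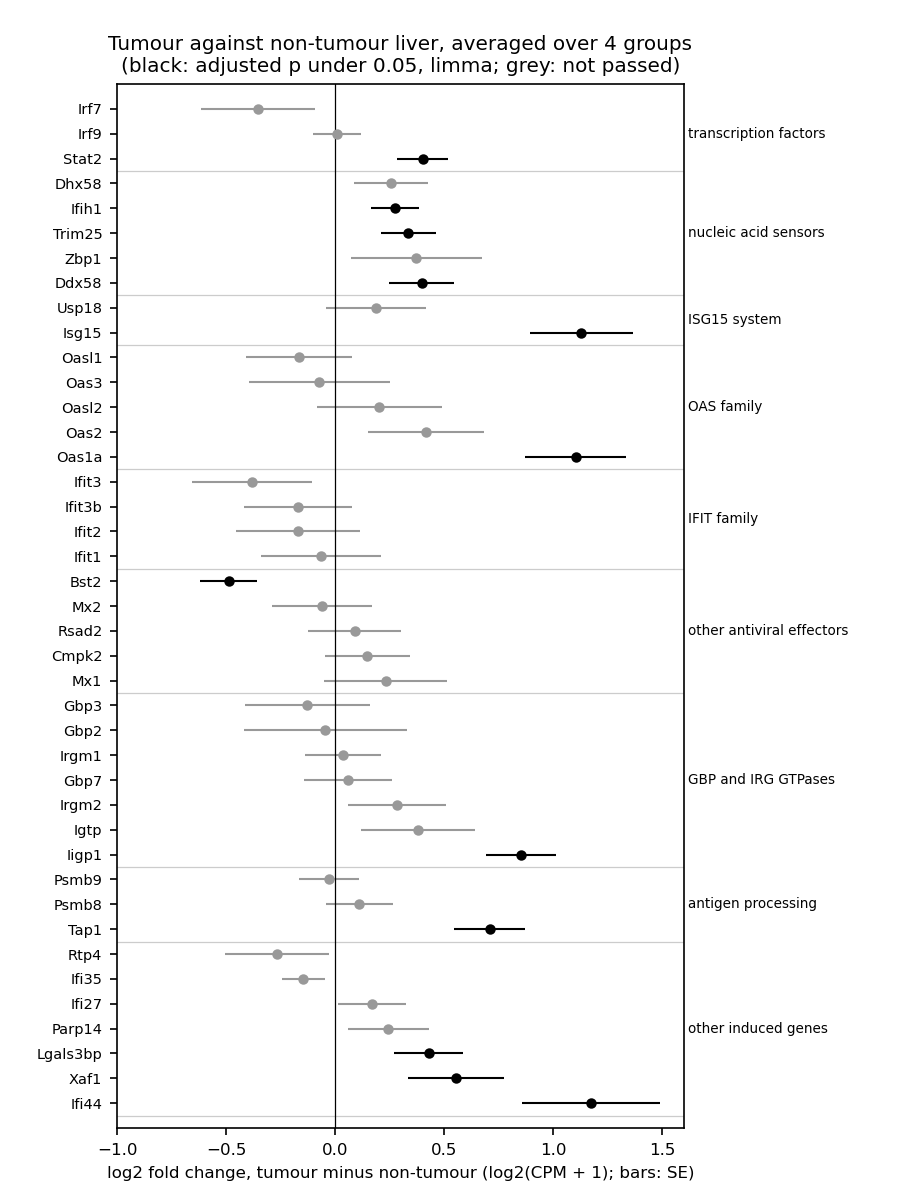
Tumour minus non-tumour difference of each gene, averaged over the 4 combinations of feeding and genotype, in log2(CPM + 1) on the horizontal axis; bars are standard errors and black points passed an adjusted p under 0.05. Isg15, Oas1a and Ifi44 lie furthest to the right and Bst2 is the only black point left of 0.

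The transcription factors of the response moved unequally. Stat2 (chr10:128270559-128292849), the STAT that defines ISGF3, was measured at 64.6, 55.5 and 54.6 CPM in HFD WT, 51.7, 30.3 and 33.2 in HFD IL17RA-/-, 51.2, 43.5, 38, 45.6 and 44.3 in alcohol WT and 42, 42.8, 47.5, 50.2 and 83.9 in alcohol IL17RA-/- non-tumour livers, replicates in numerical order. In tumours its levels were 74.4, 68 and 34.8 in HFD WT, 61.7, 87.6 and 78.1 in HFD IL17RA-/-, 46.3, 73.4 and 60.6 in alcohol WT and 70.4, 60.8, 54.8 and 63.8 in alcohol IL17RA-/-. The non-tumour ranges reach into the tumour ranges in 3 of the 4 combinations, and only in HFD IL17RA-/- do all tumours lie above all non-tumour livers. Stat2 rose by 0.40 ± 0.12 (adjusted p = 0.00427, limma), from a mean of 48.7 ± 12.7 CPM (SD, n = 16) to 64.2 ± 13.8 (n = 13). Irf7, the factor that amplifies type I interferon genes, did not pass. It was 98.6, 60.8 and 133 CPM in HFD WT, 80.3, 47.5 and 35.9 in HFD IL17RA-/-, 113, 75.2, 44, 58.9 and 62.4 in alcohol WT and 52.8, 23.9, 84, 44.3 and 169 in alcohol IL17RA-/- non-tumour livers, and 134, 78.5 and 26.7 in HFD WT, 28.4, 61.4 and 57 in HFD IL17RA-/-, 32.1, 85.3 and 41.1 in alcohol WT and 64.8, 45.2, 56.7 and 34.2 in alcohol IL17RA-/- tumours. Of the 13 tumours, 4 lay above the median non-tumour liver, and the difference was -0.35 ± 0.26 (adjusted p = 0.24, limma). Irf9, the DNA-contacting part of ISGF3, was the steadiest of the 41 genes, at 27.9 to 54.2 CPM in non-tumour liver and 28.1 to 48.9 in tumours, with a difference of 0.01 ± 0.11.

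The cytosolic sensors of nucleic acids were the group with the most even differences: 5 of 5 were positive, between 0.26 and 0.40, and 3 of 5 passed. Ddx58, which encodes the RNA helicase RIG-I, was 73, 68.7 and 77.7 CPM in HFD WT, 70.1, 44.9 and 40.7 in HFD IL17RA-/-, 61.8, 58.8, 41.2, 55.5 and 56.3 in alcohol WT and 46.3, 33.1, 63.2, 48.1 and 97 in alcohol IL17RA-/- non-tumour livers. Its tumour levels were 127, 79.2 and 56.6 in HFD WT, 43.7, 81.7 and 73.4 in HFD IL17RA-/-, 52.6, 115 and 80.4 in alcohol WT and 82.6, 76.8, 84.7 and 71.9 in alcohol IL17RA-/-. The tissues overlapped, with 10 of 13 tumours above the median non-tumour liver and the highest value in HFD WT tumour replicate 4. Ddx58 rose by 0.40 ± 0.15 (adjusted p = 0.022, limma), and fell out of the calls (0.29) without the 4 doubted libraries. Trim25, a ubiquitin ligase that acts on RIG-I signalling, was 99.6, 113 and 105 CPM in HFD WT, 113, 60.4 and 67.7 in HFD IL17RA-/-, 119, 77.2, 92.7, 102 and 85.6 in alcohol WT and 71.7, 82.3, 86.1, 98.5 and 159.8 in alcohol IL17RA-/- non-tumour livers. In tumours it was 156, 151 and 67.4 in HFD WT, 101, 126 and 128 in HFD IL17RA-/-, 124, 107 and 105 in alcohol WT and 128, 112, 119 and 135 in alcohol IL17RA-/-. Of the 13 tumours, 12 lay above the median non-tumour liver and 0 above the highest, alcohol IL17RA-/- replicate 5. Trim25 rose by 0.34 ± 0.12 (adjusted p = 0.0216, limma), and by 0.26, no longer a call, without the doubted libraries. Ifih1, which encodes the long-RNA sensor MDA5, rose by 0.27 ± 0.11 (adjusted p = 0.0313, limma), from 60.0 to 136 CPM (median 80.9) to 67.6 to 149 (median 102); its call was also lost without them (0.22). Dhx58, encoding the related helicase LGP2, and Zbp1, a sensor of Z-form nucleic acid, differed by 0.26 ± 0.17 and 0.37 ± 0.30 without passing.

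Isg15 (chr4:156199424-156200818) encodes a ubiquitin-like protein that is conjugated to other proteins after interferon, and it had one of the 3 differences above 1. It was 14.7, 7.67 and 7.53 CPM in HFD WT, 7.97, 4.08 and 3.93 in HFD IL17RA-/-, 10.7, 7.66, 3.32, 8.06 and 6.29 in alcohol WT and 2.24, 2.23, 4.9, 2.81 and 17.9 in alcohol IL17RA-/- non-tumour livers. The 13 tumours had 24, 12.5 and 6.54 in HFD WT, 10.8, 20.5 and 22.1 in HFD IL17RA-/-, 9.06, 15.8 and 16.8 in alcohol WT and 18.6, 15.3, 17.2 and 14 in alcohol IL17RA-/-. Of the 13 tumours, 12 lay above the median non-tumour liver. Alcohol IL17RA-/- non-tumour replicates 1 to 4 were all below every tumour, and replicate 5 was within the range of the tumours of its group. The mean rose from 7.0 ± 4.44 CPM (SD, n = 16) to 15.6 ± 5.07 (n = 13), a difference of 1.13 ± 0.24 (adjusted p = 0.000202, limma). Usp18 encodes the protease that removes ISG15 and restrains the type I receptor. It was 30.0, 25.9 and 35.5 CPM in HFD WT, 31.5, 19.1 and 15.9 in HFD IL17RA-/-, 39.2, 24.2, 9.31, 33.2 and 22.8 in alcohol WT and 18.8, 7.11, 24.9, 17.4 and 44.5 in alcohol IL17RA-/- non-tumour livers, and 49.8, 25.1 and 19.7 in HFD WT, 18.8, 33.3 and 30.2 in HFD IL17RA-/-, 23.3, 22.6 and 25.8 in alcohol WT and 28.3, 34.4, 41.9 and 12.8 in alcohol IL17RA-/- tumours. The tissues overlapped across nearly all of their range, and the difference was 0.19 ± 0.23 (adjusted p = 0.488, limma).

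The oligoadenylate synthetases make the second messenger that activates RNase L, and 1 of the 5 passed. Oas1a (chr5:120896256-120907521) was 23.5, 10.5 and 21.5 CPM in HFD WT, 12.4, 6.53 and 9.19 in HFD IL17RA-/-, 18.4, 10.9, 6.98, 13.6 and 10.7 in alcohol WT and 8.32, 2.85, 13.5, 4.18 and 22 in alcohol IL17RA-/- non-tumour livers. Its tumour levels were 61.2, 33.4 and 21.8 in HFD WT, 18.5, 24.5 and 27 in HFD IL17RA-/-, 13, 32.6 and 21.9 in alcohol WT and 25, 24.9, 30.6 and 13.3 in alcohol IL17RA-/-. All 13 tumours lay above the median non-tumour liver and 8 above the highest, HFD WT replicate 1. Oas1a rose by 1.10 ± 0.23 (adjusted p = 0.000223, limma). Oas2 and Oasl2 differed by 0.42 ± 0.27 and 0.20 ± 0.29, and Oas3 and Oasl1 by -0.07 ± 0.32 and -0.17 ± 0.24, and none of these 4 passed. Oas1a lies in a cluster of near-identical copies, so reads could be shared with neighbours such as Oas1g (difference 1.20 ± 0.27, adjusted p = 0.000489, limma) and the value of either copy is uncertain.

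The Ifit genes, whose products bind foreign RNA ends, gave no call: 0 of 4 passed and all 4 differences were negative, from -0.38 to -0.07. Ifit3 was 40.5, 30.7 and 64.6 CPM in HFD WT, 34, 26.4 and 14.9 in HFD IL17RA-/-, 54.7, 26.6, 17.5, 35.8 and 23.5 in alcohol WT and 18.2, 5.15, 36.2, 12.2 and 53.5 in alcohol IL17RA-/- non-tumour livers. Tumours gave 59.5, 33.8 and 14.7 in HFD WT, 12, 19.3 and 27.2 in HFD IL17RA-/-, 14.4, 26.2 and 17 in alcohol WT and 26.1, 10.2, 25.9 and 14 in alcohol IL17RA-/-. HFD WT replicates 4 and 5 were the 2 of 13 tumours above the median non-tumour liver. The difference was -0.38 ± 0.28 (adjusted p = 0.231, limma), with Ifit1 at -0.07 ± 0.28, Ifit2 at -0.17 ± 0.28 and Ifit3b at -0.17 ± 0.25. Ifit3 and Ifit3b are close copies and the split of reads between them is uncertain. Whether the Ifit genes differ from Isg15 in their response to tissue was not tested.

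Bst2 (chr8:71534255-71537456), which encodes tetherin, a membrane protein that holds budding virions at the cell surface, was the gene that fell. It was 239, 185 and 214 CPM in HFD WT, 209, 170.0 and 134 in HFD IL17RA-/-, 191, 212, 186, 172 and 178 in alcohol WT and 129.7, 98.6, 192, 119 and 201 in alcohol IL17RA-/- non-tumour livers. In tumours it was 242, 126 and 116 in HFD WT, 104, 109.5 and 105 in HFD IL17RA-/-, 71.2, 171 and 126 in alcohol WT and 151, 130.2, 143 and 102 in alcohol IL17RA-/-. In alcohol WT and HFD IL17RA-/- livers every tumour lay below every non-tumour liver. HFD WT tumour replicate 4, the library low in tumour markers, had the highest Bst2 of all. The mean was 177 ± 38.5 CPM (SD, n = 16) in non-tumour liver and 131 ± 41.8 (n = 13) in tumours, a difference of -0.49 ± 0.13 (adjusted p = 0.00214, limma). Of the other antiviral effectors none passed: the dynamin-like GTPases Mx1 and Mx2 differed by 0.23 ± 0.28 and -0.06 ± 0.23, Rsad2 (viperin) by 0.09 ± 0.21 and its neighbour Cmpk2 by 0.15 ± 0.20.

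Among the 7 interferon-inducible GTPases, which attack the membranes around intracellular microbes, Iigp1 alone passed. It was 1161, 611 and 393 CPM in HFD WT, 437, 393 and 440.0 in HFD IL17RA-/-, 528, 447, 293, 648 and 472 in alcohol WT and 293, 278, 415, 383 and 666 in alcohol IL17RA-/- non-tumour livers. The 13 tumours had 754, 1159 and 943 in HFD WT, 566, 1162 and 852 in HFD IL17RA-/-, 842, 1036 and 616 in alcohol WT and 1085, 761, 783 and 766 in alcohol IL17RA-/-. All 13 tumours lay above the median non-tumour liver, and 4 of the 16 non-tumour livers exceeded the lowest tumour, with HFD WT replicate 1 far above the other 3. Iigp1 rose by 0.85 ± 0.16 (adjusted p = 5.14e-05, limma) and kept its call in every alternative that was run for this average. The guanylate-binding protein genes gave -0.04 ± 0.37 for Gbp2, -0.13 ± 0.29 for Gbp3 and 0.06 ± 0.20 for Gbp7, and the immunity-related GTPases 0.38 ± 0.26 for Igtp, 0.04 ± 0.17 for Irgm1 and 0.28 ± 0.23 for Irgm2. Members of these families share sequence, so their individual levels are uncertain.

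Tap1 (chr17:34187553-34197225) encodes a subunit of the transporter that carries peptides to MHC class I. It was 106, 42.2 and 56.4 CPM in HFD WT, 58.5, 35.7 and 31.4 in HFD IL17RA-/-, 52.5, 40.1, 34.5, 35.9 and 39.5 in alcohol WT and 24.9, 17.5, 46.7, 32.7 and 56.2 in alcohol IL17RA-/- non-tumour livers, and 73.4, 113 and 79.8 in HFD WT, 47.6, 88.9 and 86.6 in HFD IL17RA-/-, 52.1, 91.5 and 57.2 in alcohol WT and 73.1, 63.6, 53.4 and 57 in alcohol IL17RA-/- tumours. All 13 tumours lay above the median non-tumour liver, and 5 of the 16 non-tumour livers, 3 of them HFD livers, exceeded the lowest tumour. Tap1 rose by 0.71 ± 0.16 (adjusted p = 0.000573, limma). The immunoproteasome subunits beside it on chromosome 17, Psmb8 and Psmb9, did not pass, at 0.11 ± 0.15 and -0.03 ± 0.14.

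Of the genes with other or less certain functions, 3 of 7 passed. Ifi44 (chr3:151730922-151749960) was 21.4, 14.3 and 22.7 CPM in HFD WT, 14.1, 12.9 and 9.52 in HFD IL17RA-/-, 23.8, 9.5, 4.74, 17.8 and 10.6 in alcohol WT and 8.66, 2.09, 15.6, 5.76 and 51.1 in alcohol IL17RA-/- non-tumour livers. Tumours gave 73.1, 41.9 and 14.1 in HFD WT, 18.8, 38.9 and 38.4 in HFD IL17RA-/-, 26.8, 30.5 and 32.9 in alcohol WT and 35.5, 25.5, 39.6 and 12.8 in alcohol IL17RA-/-. Alcohol WT tumours all lay above alcohol WT non-tumour livers, while alcohol IL17RA-/- non-tumour replicate 5 was above every tumour of its group. Ifi44 rose by 1.17 ± 0.32 (adjusted p = 0.00243, limma). Lgals3bp, a secreted galectin-binding glycoprotein, was 174, 115 and 180.0 CPM in HFD WT, 125, 86.6 and 91.6 in HFD IL17RA-/-, 154, 98.9, 94.6, 111 and 101 in alcohol WT and 102, 45.7, 143, 68 and 162 in alcohol IL17RA-/- non-tumour livers. In tumours it was 255, 202 and 115 in HFD WT, 126, 162 and 169.6 in HFD IL17RA-/-, 102, 157 and 138 in alcohol WT and 177, 144, 158 and 118 in alcohol IL17RA-/-. The tissues overlapped widely outside HFD IL17RA-/-, and the rise of 0.43 ± 0.16 (adjusted p = 0.0206, limma) became 0.38, not a call, without the doubted libraries. Xaf1, which binds the apoptosis inhibitor XIAP, rose by 0.56 ± 0.22 (adjusted p = 0.031, limma), from 2.79 to 19.8 CPM (median 8.2) to 5.56 to 23 (median 12.1), and also lost its call without them (0.45). Ifi27 was 139.9, 157 and 203 CPM in HFD WT, 153, 133 and 119 in HFD IL17RA-/-, 146, 203, 131, 122 and 175 in alcohol WT and 84.7, 78.1, 132, 107 and 248 in alcohol IL17RA-/- non-tumour livers, and 199.6, 138 and 129.6 in HFD WT, 159.6, 160.0 and 161 in HFD IL17RA-/-, 97.7, 206 and 217 in alcohol WT and 174, 219, 167 and 101 in alcohol IL17RA-/- tumours. The tissues overlapped, with no tumour above the highest non-tumour liver, and the difference was 0.17 ± 0.16 (adjusted p = 0.354, limma). Ifi35, Parp14 (an ADP-ribosyltransferase) and Rtp4 differed by -0.15 ± 0.10, 0.24 ± 0.19 and -0.27 ± 0.24, none of them past the threshold.

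Taken by combination, the number of genes that passed differed, as did the number of all genes. In alcohol IL17RA-/- liver 4 rose, Isg15 (1.68 ± 0.42), Oas1a (1.37 ± 0.41), Iigp1 (1.12 ± 0.28) and Tap1 (0.88 ± 0.29), beside 21.8% of all genes higher and 18.1% lower. That count was 10 without non-tumour replicate 5 of this group and 2 without its non-tumour replicates 2 and 4. Shares of all genes called in such refits are not given here. In HFD IL17RA-/- liver 4 rose, Stat2 (0.99 ± 0.25), Isg15 (1.57 ± 0.51), Iigp1 (0.96 ± 0.34) and Oas1a (1.25 ± 0.50), beside 23.9% of all genes higher and 16.5% lower, and the count was 1 without tumour replicate 5, tumour replicate 6 or non-tumour replicate 2. Without non-tumour replicate 3, the library high in tumour markers, 2 rose and 1 fell. The median over the 41 genes was 0.26 there (all genes 0.15), and 0.02 without the doubted libraries (all genes 0.12). In alcohol WT liver Iigp1 rose (0.81 ± 0.31) and Bst2 fell (-0.70 ± 0.25), beside 16.6% and 19.2% of all genes. Iigp1 lost that call without any one of non-tumour replicates 2, 3 and 5 or tumour replicates 4 and 5. Bst2 lost it without non-tumour replicate 2, tumour replicate 4 (where the difference was -0.35) or tumour replicate 6. In HFD WT liver 0 of 41 passed by limma, beside 7.64% and 7.61% of all genes. The median was 0.09 (all genes 0.07), and -0.03 without the doubted libraries (all genes 0.08). There 0 genes had an unadjusted p under 0.05 by limma, beside 28.7% of all genes. Limma-voom on the recovered counts called 0 with 1 at an unadjusted p under 0.05, and the smallest adjusted p was 0.199 for Oas1a (limma).

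Counted by overlap, 8 of 41 genes had every HFD IL17RA-/- tumour above every such non-tumour liver (Stat2, Isg15, Oas1a, Iigp1, Ifi27, Ifi44, Xaf1 and Lgals3bp), beside 32.4% of all genes, and Bst2 was wholly below, beside 22.3%. In alcohol IL17RA-/- liver only Iigp1 was wholly above (15.1% of all genes). In alcohol WT liver Ifi44 was wholly above (17.0%), with Bst2 and Ifi35 wholly below (20.0%). No gene was separated in HFD WT liver, where 12.7% of all genes were above and 10.3% below. Whether the effect of tissue depends on genotype was tested as an interaction averaged over feeding, and 0 of 41 passed by limma or limma-voom. The largest was Isg15, whose tumour rise was greater in IL17RA-/- than in WT by 0.99 ± 0.47 (adjusted p = 0.528, limma). An unadjusted p under 0.05 was found for 1 gene by limma (2.44%), beside 9.32% of all genes. The interaction of tissue with feeding gave 0 of 41, with 0 at an unadjusted p under 0.05 (3.67% of all genes by limma) and 0 by limma-voom.

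Cell-type markers moved between the tissues as well, and their part in these differences was not tested. Their counts stand beside 36.6% of all genes that rose and 27.0% that fell. Kupffer cell markers fell in 12 of 13 genes, with a median of -1.77. Plasmacytoid dendritic cells make much of the type I interferon in blood, and 5 of the 6 tested genes of their list rose, Siglech by 0.53 ± 0.17. The 8 genes of that list summed to 29.7 to 206 CPM in non-tumour livers and 188 to 519 in tumours. Of 12 T and natural killer cell markers, 3 rose, and of 10 monocyte-derived macrophage markers, 2 rose and 1 fell. All 8 cell cycle genes rose. Hepatocyte markers, which include enzymes that many liver tumours lose, rose in 3 and fell in 7 of 12. Their summed level was nevertheless higher in tumours, with group medians of 132038 to 183002 CPM against 89593 to 97969 in non-tumour liver. What that shift did to the CPM of other genes was not tested.

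The other genes of the pathway give the setting. Transcripts of Ifna1, Ifna2, Ifna4, Ifna5, Ifnb1, Ifne, Ifnl2 and Ifnl3 were at 0 in all 29 libraries, which allows no more than 0.311 to 0.934 CPM each. Ifng reached at most 0.773 CPM. Ifnk was 0.112 to 1.89 CPM in non-tumour liver and 0.436 to 4.52 in tumours and rose by 0.79 ± 0.19 (adjusted p = 0.000694, limma). Of 12 receptor and signalling genes, 6 rose and 0 fell, beside 36.6% and 27.0% of all genes. Ifngr1, the ligand-binding chain of the interferon gamma receptor, went from 34.5 ± 12 CPM (SD, n = 16) to 80.5 ± 20.6 (n = 13), a rise of 1.19 ± 0.16. Ifnlr1, the chain specific to type III interferon, went from 0.333 ± 0.403 to 3.8 ± 1.15 CPM and rose by 1.81 ± 0.14. Its non-tumour mean lies within the 0.311 to 0.934 CPM that 3 counts stand for, and the lowest Ifnk value lies below it. The size of either rise is therefore uncertain. The kinases Jak1 (0.45 ± 0.07) and Tyk2 (0.51 ± 0.09) rose too. Of 14 genes of upstream sensing, 4 rose and 3 fell, both below the shares over all genes. Ticam1, the adaptor of TLR3, rose by 0.72 ± 0.09, and Mavs, the adaptor of RIG-I and MDA5, fell (-0.54 ± 0.07).

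A wider list of 52 interferon-induced genes outside the 41 also moved in both directions between the tissues, with 10 that rose, 10 that fell and a median difference of 0.11. Both counts are smaller shares than the 36.6% and 27.0% of all genes. Among the genes that fell were Ifitm1 (-1.11 ± 0.18), a membrane protein that blocks viral entry, the partners Parp9 (-0.77 ± 0.13) and Dtx3l (-0.68 ± 0.12), and Apol9b (-1.27 ± 0.23). Of the 2 most abundant genes of this list, Ly6e rose (0.70 ± 0.19) and Ifitm3 differed by 0.09 ± 0.10 without passing.

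Genotype was compared within each tissue and diet, as IL17RA-/- minus WT. In none of these 4 contrasts, nor in their averages over diet, did any of the 41 genes pass by limma or by limma-voom. All 41 differences were negative in HFD non-tumour liver, from -1.31 (Zbp1) to -0.29, with a median of -0.69 against -0.12 over all genes. Most other genes leaned the same way there, with 26.8% of all genes positive. Of all genes tested in that contrast 0.0% passed in either direction. At an unadjusted p under 0.05 there were 6 genes by limma (14.6%, beside 3.59% of all genes) and 8 by limma-voom. Stat2 (-0.62 ± 0.23), Psmb9 (-0.74 ± 0.30), Dhx58 (-0.64 ± 0.29), Gbp7 (-0.81 ± 0.37), Oasl1 (-0.89 ± 0.41) and Irf9 (-0.48 ± 0.22) made up the 6, each with an adjusted p of 0.9 (limma). In the 3 WT livers Stat2 was 64.6, 55.5 and 54.6 CPM and in the 3 IL17RA-/- livers 51.7, 30.3 and 33.2. Those values do not overlap, and the same held for 11 of the 41 genes, all lower in IL17RA-/-, beside 8.6% of all genes. By role, the medians ran from -0.98 for the GTPases and -0.90 for the Ifit genes to -0.53 for the sensors. The median over the 41 was -0.53 without WT replicate 1 and -0.91 without WT replicate 2, and it was -0.39, with 2 differences positive, without both doubted libraries (WT replicate 1 and IL17RA-/- replicate 3).

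In alcohol non-tumour liver the median was -0.23 (all genes 0.01), with 4 of 41 positive, beside 54.3% of all genes. At an unadjusted p under 0.05 there was 1 gene by limma, Bst2 (2.44%, beside 2.57% of all genes), and 1 by limma-voom. The background there was 0.0% of genes called. A pair of opposite libraries made up much of the spread: IL17RA-/- replicate 2 had the lowest value of the group in 36 genes and replicate 5 the highest in 39. Such ranks over all genes are not given here. The median was 0.02 without replicate 2 and -0.47 without replicate 5, and from -0.09 to -0.40 without replicate 4, WT replicate 1 or WT replicate 3. Without replicates 2 and 4 it was 0.22 and 34 of 41 differences were positive, so its direction turned. Kupffer cell markers summed to 370 CPM in replicate 2 and 339 in replicate 4 against 879 to 2282 in the other non-tumour livers. Monocyte-derived macrophage markers were low in the same livers, at 76.6 and 79.8 CPM, and the part of either list in the result was not tested.

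In HFD tumours the median difference of IL17RA-/- from WT was -0.49 (all genes -0.09), with 7 of 41 positive, beside 42.1% of all genes. Of all genes 0.603% passed as higher and 1.0% as lower in that contrast. The largest difference by p was Gbp3, at 57.2, 58.7 and 33.6 CPM in WT and 8.18, 23.1 and 27.8 in IL17RA-/- tumours, which did not overlap. It came to -1.41 ± 0.49 (adjusted p = 0.123, limma). Bst2, Gbp3, Igtp, Psmb8 and Psmb9 were wholly lower in IL17RA-/-, 5 of 41, beside 16.5% of all genes. Psmb9 was 30.0, 35.8 and 29.6 CPM in WT and 14.1, 17.9 and 24.6 in IL17RA-/- tumours (-0.75 ± 0.27, adjusted p = 0.124, limma). An unadjusted p under 0.05 was found for 5 genes by limma (12.2%, beside 22.5% of all genes) and 5 by limma-voom. The median moved to -0.16 without WT replicate 4, to -0.84 without WT replicate 6 and to -0.19 without IL17RA-/- replicate 4. Marker sums set those WT tumours apart as well: monocyte-derived macrophage markers came to 1848 CPM in replicate 4 and 1976 in replicate 5, against 204 to 811 in every other tumour, and T and natural killer cell markers to 80.0 in replicate 5 and 44.4 in replicate 6, against 5.96 to 30.2. Their part in the difference was not tested. In alcohol tumours the median was 0.09 (all genes 0.09), with 28 of 41 positive, beside 67.6% of all genes. There 0 had an unadjusted p under 0.05 by limma (1.97% of all genes) or limma-voom, and 0.0% of all genes were called. Leaving out WT replicate 4 gave -0.11 and leaving out WT replicate 5 gave 0.36, so the direction there hangs on single libraries. Averaged over feeding, 34.2% of all genes were positive in non-tumour liver and 50.1% in tumours. The medians over the members were -0.46 in non-tumour liver (0 of 41 positive, with 0.0% of all genes called) and -0.20 in tumours (9 of 41 positive, with 0.0301%). The first was -0.28 without the doubted libraries and -0.25 without alcohol IL17RA-/- replicates 2 and 4. The second was -0.003, with 20 of 41 positive, without the doubted libraries, and ran from -0.36 without HFD WT replicate 6 to -0.03 without HFD WT replicate 4. It also moved without alcohol WT replicate 4 (-0.33), alcohol WT replicate 5 (-0.06) and HFD IL17RA-/- replicate 4 (-0.06).

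Feeding was compared as alcohol minus HFD within each tissue and genotype, and again none of the 41 genes passed by limma or limma-voom. In WT non-tumour liver all 41 differences were negative, beside 33.6% of all genes positive. The median was -0.50 (all genes -0.08), with 0.0% of all genes called. This contrast uses the same 3 HFD WT livers as the genotype contrast on HFD, so these contrasts are not separate evidence. Igtp, an immunity-related GTPase, was 253, 71.4 and 68.4 CPM on HFD and 71.4, 44.9, 22.2, 52.9 and 40.2 on alcohol. HFD replicate 1 lay far above the others, and the difference was -1.29 ± 0.49 (adjusted p = 0.875, limma). Irgm2 (-1.01 ± 0.43) and Psmb9 (-0.67 ± 0.27) also had an unadjusted p under 0.05. That made 3 genes by limma (7.32%, beside 4.22% of all genes) and 3 by limma-voom. Stat2, Ddx58 and Psmb9 did not overlap between the diets, 3 of 41, beside 2.57% of all genes. The median was -0.33 to -0.72 with single livers left out. In IL17RA-/- non-tumour liver it was -0.11 (all genes 0.05), with 16 of 41 positive, beside 60.4% of all genes. There 1 had an unadjusted p under 0.05 by limma (2.44%, beside 5.81% of all genes) and 0 by limma-voom, and 0.0% of all genes were called. Without alcohol replicates 2 and 4 that median became 0.39, with 38 positive, and without HFD replicate 3, a doubted library, it was -0.27. With single livers left out it ran from -0.35 (alcohol replicate 5) to 0.20 (alcohol replicate 2), and it was also positive without alcohol replicate 4 or HFD replicate 1.

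In WT tumours alcohol minus HFD had a median of -0.44 (all genes -0.17), with 4 of 41 positive, beside 31.9% of all genes. Of all genes 0.00754% were called. The HFD WT tumours are those of the genotype contrast above. Psmb9 was 30.0, 35.8 and 29.6 CPM on HFD and 9.88, 23.5 and 14.3 on alcohol, and Psmb8 80.8, 76.3 and 77.7 and 26.9, 63.4 and 31.8. All alcohol tumours were below all HFD tumours for both, 2 of 41 genes, beside 12.1% of all genes. Psmb9 differed by -1.03 ± 0.27 (adjusted p = 0.173, limma) and Psmb8 by -1.03 ± 0.30 (adjusted p = 0.196, limma). An unadjusted p under 0.05 was found for 8 genes by limma (19.51%, beside 16.02% of all genes) and 9 by limma-voom. Without alcohol replicate 5 limma called 3 genes lower, a count whose share over all genes in that refit is not given here. The median then was -0.68. It was -0.19 without HFD replicate 4, -0.86 without HFD replicate 6 and -0.27 without alcohol replicate 4. In IL17RA-/- tumours the median was 0.01 (all genes -0.004), with 22 of 41 positive, beside 49.2% of all genes. There 0 had an unadjusted p under 0.05 by both tools (2.21% of all genes by limma), and 0.0% of all genes were called. That median was -0.26 without HFD replicate 4 and 0.12 without HFD replicate 5. Averaged over genotype, 5 of 41 differences were positive in non-tumour liver, beside 46.3% of all genes, and 7 of 41 in tumours, beside 32.7%. The medians were -0.29 (all genes -0.01) and -0.18 (all genes -0.07) in the same order, with 0.0% and 0.0% of all genes called. The non-tumour value was -0.14 without alcohol IL17RA-/- replicate 2, -0.16 without HFD IL17RA-/- replicate 1 and -0.01, with 16 of 41 positive, without alcohol IL17RA-/- replicates 2 and 4. The tumour value was -0.05, with 18 positive, without HFD WT replicate 4, and -0.03 without both doubted tumours. It was -0.08 without HFD IL17RA-/- replicate 5, and from -0.32 to -0.38 without alcohol WT replicate 5, HFD IL17RA-/- replicate 4 or HFD WT replicate 6. Whether genotype changes the response to feeding was tested as an interaction. None of the 41 passed in non-tumour liver or in tumours. In non-tumour liver the median was 0.46 (all genes 0.13), with 39 positive, beside 72.3% of all genes. There 1 had an unadjusted p under 0.05 by limma (4.12% of all genes) and 1 by limma-voom. In tumours the median was 0.61 (all genes 0.17), with 36 positive, beside 64.0% of all genes. There 1 had an unadjusted p under 0.05 by limma (13.2% of all genes) and 2 by limma-voom. Without the doubted libraries these medians were 0.15, with 26 positive, and 0.27, with 30 positive. The non-tumour median was 0.23 without alcohol IL17RA-/- replicate 5, 0.30 without HFD WT replicate 1, 0.72 without alcohol IL17RA-/- replicate 2 and 0.93 without alcohol IL17RA-/- replicates 2 and 4. In tumours it was 0.23 without HFD WT replicate 4, 0.30 without HFD IL17RA-/- replicate 4, 0.36 without alcohol WT replicate 4 and 0.97 without HFD WT replicate 6.

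**Figure D4:**
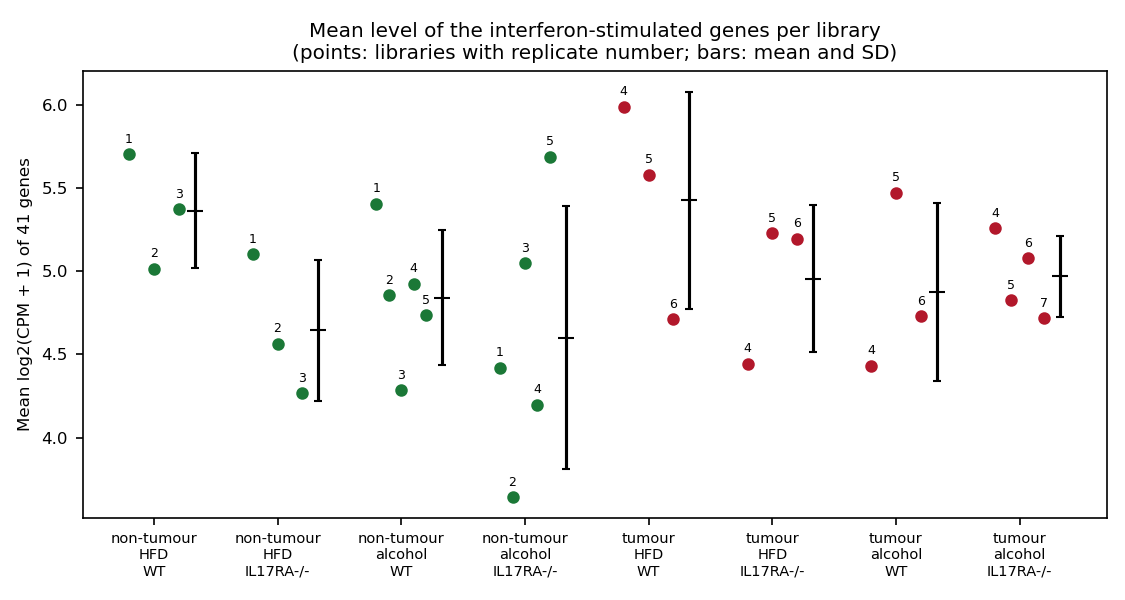
Mean log2(CPM + 1) of the 41 genes in each library (points), by group, with the mean and SD of each group. The groups overlap, and the spread is widest in alcohol IL17RA-/- non-tumour liver, from 3.64 to 5.69.

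In each group other than alcohol IL17RA-/- tumours, 1 library was the highest or the lowest for 30 or more of the 41 genes. The same ranks over all genes are not given, here or below. These counts therefore cannot tell a shift of this set from a shift of the whole library. In HFD IL17RA-/- tumours replicate 4 was lowest for 41 of 41 genes, with the highest values split between replicates 5 (25 genes) and 6 (16 genes). In HFD IL17RA-/- non-tumour liver replicate 1 was highest for 40, and in alcohol IL17RA-/- non-tumour liver replicate 5 was highest for 39 and replicate 2 lowest for 36. Alcohol WT non-tumour replicate 3 was lowest for 34 and replicate 1 highest for 32, and among alcohol WT tumours replicate 5 was highest for 36. HFD WT tumours had replicate 4 highest for 30 and replicate 6 lowest for 36. In HFD WT non-tumour liver replicate 2 was lowest for 30, and the highest values were split between replicates 1 (22 genes) and 3 (16 genes). In alcohol IL17RA-/- tumours replicate 4 was highest for 25 genes and the lowest values were split between replicates 7 (19 genes) and 5 (16 genes). Across all 16 non-tumour livers the highest value belonged to alcohol IL17RA-/- replicate 5 for 22 genes and to HFD WT replicate 1 for 15.

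The roles of the genes divided those high libraries. HFD WT non-tumour replicate 1 was the highest non-tumour liver for 7 of 7 GTPases and 3 of 3 antigen-processing genes, while alcohol IL17RA-/- replicate 5 was highest for all 3 transcription factors, 4 of 5 sensors and 4 of 5 Oas genes, but for 1 of 4 Ifit genes. Gbp2 was 164, 23.2 and 37.4 CPM in the HFD WT livers and 16.2, 4.04, 38.7, 4.08 and 12.8 in the alcohol IL17RA-/- livers. Gbp2 in HFD WT replicate 1 was thus far above alcohol IL17RA-/- replicate 5, whereas Ifit1 was 26.3, 24.9 and 32.4 and 9.62, 4.88, 21.4, 13.6 and 50.6 in the same groups, with the order turned. The order was turned for Ifit3 and Ifit3b too, but not for Ifit2, which was 42.2 CPM in the first of these livers and 30.4 in the second. Cxcl9, a chemokine gene that interferon gamma induces, was 281 CPM in HFD WT replicate 1 and 12.3 to 41.6 in the other non-tumour livers. That liver also had the highest T and natural killer cell marker sum of the non-tumour livers, 41.5 CPM against 6.09 to 21.6, and the part of those cells was not tested.

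Among the 13 tumours HFD WT replicate 4 was highest for 27 of 41 genes, including 4 of 4 Ifit genes and 5 of 5 other antiviral effectors, and for none of the 7 GTPases. HFD WT replicate 6 had a mean over the 7 GTPases of 6.67 on the log2(CPM + 1) scale beside a mean over the 9 Oas and Ifit genes of 3.19. Replicate 4 of the same group had 6.69 and 5.32. The GTPase means of these tumours were close, but their members went both ways: Gbp2 was 27 CPM in replicate 4 and 78.2 in replicate 6, and Gbp3 57.2 and 33.6. Cxcl9 was 61.4 CPM in replicate 4, 310 in replicate 5 and 249 in replicate 6, against 15 to 121 in the other 10 tumours. These are descriptions of single libraries, with no test.

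**Figure D5:**
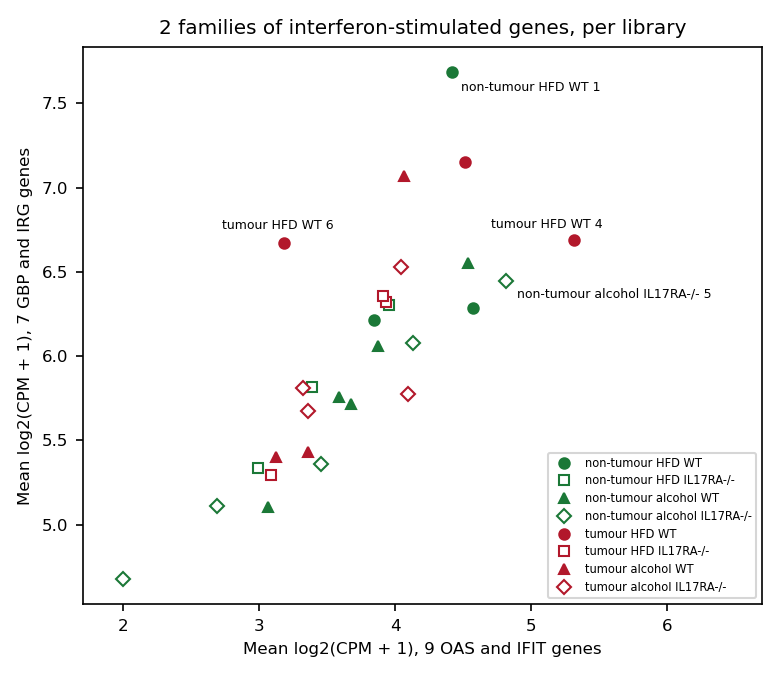
Mean log2(CPM + 1) of the 9 Oas and Ifit genes (horizontal) against that of the 7 guanylate-binding and immunity-related GTPases (vertical), 1 point per library, coloured by tissue with shapes for feeding and genotype. HFD WT non-tumour replicate 1 (7.68 on the vertical axis) and HFD WT tumour replicate 6 (6.67) lie above the other libraries with similar Oas and Ifit means.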

How the data were processed

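PolyA-selected, stranded libraries were sequenced, per the labels' protocols; the submitters' processing notes name STAR 2.5.1a, RSEM 1.3.0 and GRCm38, and not the annotation. The table the authors deposited holds CPM for 22187 gene IDs, with the same total in each library. Symbols and coordinates came from GENCODE M21 (21653 IDs matched, and the 534 others held 0.138% of the CPM). Steps between low CPM values gave each depth: 85.7% to 87.9% of values below 100 counts were whole within 0.002 counts, and all were whole hundredths.

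Limma 3.58.1 (R 4.3.3) was fitted to log2(CPM + 1) with a variance trend, over genes that reached 1 CPM in 3 or more of the libraries fitted (16 non-tumour, 13 tumour or all 29), with Benjamini-Hochberg adjustment, two-sided. The code was tested on simulated data. Python 3.11.15 with pandas 2.3.3, numpy 2.4.6 and matplotlib 3.10.9 did the rest.

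The members and lists were chosen with earlier results of these data known. Values in every library are given for up to 10 called members by smallest adjusted p and for the most abundant member of each role group; of other lists, up to 4 called and the 2 most abundant genes. Cxcl9, and member values outside this rule, were chosen after their values were seen. Replicate numbers were checked as pairs: in alcohol against HFD, non-tumour WT, the deviations of same-numbered livers correlated at 0.338, 0.268 and 0.134, though the labels state no pairing. The fit with the number as a block called 0 members there, as did the fit without it. Other settings tried were no filter on low values, 0.1 as the pseudocount, rescaling by median ratios, limma-voom on recovered counts (whole to hundredths), a replicate block, only the compared groups and leaving out each library; 2 fits with fewer libraries were added after seeing the data. A gene of the signalling list is counted but not reported here by name.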

Additional observations from a re-analysis of the deposited data

Results flagged for a closer look

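A single library stood apart from the others of its group in 5 of 51 checks of a gene, or of the mean over the members. Only groups of 4 or 5 libraries were checked, so no library of an HFD group or of alcohol WT tumours could be flagged. Chance flags about 1 in 20 of separate checks. These genes vary together within a library, so that rate is no yardstick for the count. Non-tumour alcohol IL17RA-/- replicate 5 had 51.1 CPM of Ifi44 (the other 4 livers 2.09 to 15.6), 17.9 of Isg15 (2.23 to 4.90) and 83.9 of Stat2 (42.0 to 50.2). Non-tumour alcohol WT replicate 1 had 154 CPM of Lgals3bp, against 94.6 to 111 in the other 4. Tumour alcohol IL17RA-/- replicate 4 had 1085 CPM of Iigp1, against 761 to 783 in the other 3.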

How the results depend on the processing

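Among counts and medians recomputed under alternatives, 1175 stayed within 1.5 times the reported count or 1 SD of it and 34 moved. The SD is that between libraries in the mean of the members. It is wide, and 403 of 403 medians moved by less than it, so this tally does not show that they were stable. One of them, genotype in alcohol non-tumour liver, went from -0.23 to 0.22 without IL17RA-/- replicates 2 and 4. Counts of 0 in both fits were also taken as unchanged. Among values of single genes and group means, 533 kept their side of the threshold or moved by less than 1 SD. Another 57 fell below the threshold and 1 moved (the median in place of the mean over members gave 4.6 in alcohol IL17RA-/- tumours). None of these single-gene values and group means reversed, but medians over the members did change sign in some fits. Alcohol minus HFD in IL17RA-/- non-tumour liver went from -0.11 to 0.39 without alcohol replicates 2 and 4. Genotype in alcohol tumours went from 0.09 to -0.11 without WT replicate 4. Median-ratio rescaling shifted the median of all genes by over 0.1 in 4 contrasts (HFD non-tumour genotype, WT tumour diet and both genotype by diet interactions), and all 41 members stayed negative in the first. For the average of tumour minus non-tumour, 2 members fell after rescaling, 6 rose and 2 fell without the 4 doubted libraries, and 2 fell without non-tumour alcohol IL17RA-/- replicates 2 and 4; with single libraries left out 8 to 12 rose and 1 to 2 fell. In alcohol IL17RA-/- liver 2 rose with a replicate block and 2 without those replicates, and 3 to 10 with single libraries left out. In alcohol WT liver 0 rose with no filter, 3 rose after rescaling, 0 rose and 0 fell with a replicate block, 4 rose and 2 fell with only the compared groups fitted, and 2 fell without the doubted libraries; 0 to 1 rose and 0 to 1 fell with single libraries left out. In HFD IL17RA-/- liver 1 fell after rescaling, 8 rose and 1 fell with only the compared groups fitted, and 2 rose and 1 fell without the doubted libraries; 1 to 5 rose and 0 to 1 fell with single libraries left out. In HFD WT liver 0 to 1 fell, and in WT tumours 0 to 3 were lower on alcohol, with single libraries left out. Shares of all genes called in these refits are not given here, so the counts describe the members alone. The cause of these moves was not tested. No result with the replicate block was kept for the HFD tissue contrasts, the tissue average or the tissue interactions. In the genotype and feeding contrasts no member was called with or without it. Outside WT non-tumour liver, in no contrast checked did every replicate correlate best with its own number, though some replicates did. The highest of these correlations was 0.409, for alcohol non-tumour replicate 1 between the genotypes. Depth limits Mx1 most, whose lowest value stands at 3 counts.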

Other observations

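MHC class I genes, which present the peptides that Tap1 and the immunoproteasome supply, moved unequally between tumour and non-tumour liver. Of 14 genes on a list of class I presentation, 8 rose and 3 fell on the average of the 4 combinations, beside 36.6% and 27.0% of all genes. The non-classical gene H2-Q7 went from 41.3 ± 13.5 CPM (SD, n = 16) to 141 ± 46.6 (n = 13), a rise of 1.71 ± 0.14 (adjusted p = 2.47e-10, limma). H2-Q6 rose by 1.47 ± 0.13 and H2-Q4 by 1.03 ± 0.16. Erap1, the aminopeptidase that trims peptides in the endoplasmic reticulum, fell (-0.64 ± 0.07). The 2 most abundant genes of the list were B2m, the shared light chain (-0.05 ± 0.07), and the classical gene H2-K1 (0.02 ± 0.08), and neither passed. The Q-region genes are close copies, so the split of reads between them is uncertain.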
